A study of Mus musculus with 12 samples.

Results

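Interferon-stimulated genes were followed in natural killer (NK) cells of mice with and without the microRNA miR-142. The set was a list of 43 symbols of genes known to respond to interferon. Of these, 39 had a probe set annotated with that symbol alone, and 36 passed the filter on low signal and entered the test, out of 11963 genes tested in all. Mx1, Mx2 and Rsad2 had a probe set but a mean signal under the filter. Gbp2, Igtp and Isg15 were each found only in a probe set that names several genes, and Ifi44 in none, so these 4 have no value here.

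Wild type and miR-142 knockout mice on the C57BL6 strain, 7 to 10 weeks old and of matched age and sex, were compared. NK cells were taken as the CD3-, NK1.1+ gate of the spleen and the bone marrow in each genotype, which made 4 groups of 3 Affymetrix arrays. Per the labels, the 3 arrays are biological replicates. The labels name no infection, interferon or other treatment for any group, and do not say how the knockout allele was made or whether cells of several mice were pooled. Each value is a log2 signal of a probe set, so a difference of 1 is a doubling.

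Type I interferons bind the receptor made of Ifnar1 and Ifnar2, whose kinases Jak1 and Tyk2 activate Stat2, which joins Irf9 in a complex that binds the interferon-stimulated response element of its target genes. Interferon gamma, which NK cells themselves secrete, acts through its own receptor and on genes that carry the gamma-activated site. The induced genes include sensors of viral RNA, factors that block viral replication, GTPases that act on intracellular microbes, and regulators that raise or damp the response. In NK cells type I interferon is known to raise cytotoxicity and early activation.

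The promoters of 6 members are shown because these genes passed the test in at least 1 comparison of the genotypes (a single tissue, or both together) and carry the elements to different degrees. Each run is the 150 bases before the annotated start in RefSeq (GRCm38.p6), 5′ to 3′ on the strand of the gene. In Ifit1, Ifih1, Gbp3 and Phf11a, capitals mark the core of the response element, spelled GAAANNGAA and searched on both strands, so that it can also read as its reverse complement. In Isg20, capitals mark a gamma-activated site, TTCNNNGAA, which reads the same on both strands. Phf11c had neither motif in this stretch.
Ifit1: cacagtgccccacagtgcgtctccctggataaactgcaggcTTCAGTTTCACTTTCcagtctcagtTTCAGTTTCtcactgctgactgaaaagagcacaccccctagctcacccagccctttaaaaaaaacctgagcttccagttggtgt
Ifih1: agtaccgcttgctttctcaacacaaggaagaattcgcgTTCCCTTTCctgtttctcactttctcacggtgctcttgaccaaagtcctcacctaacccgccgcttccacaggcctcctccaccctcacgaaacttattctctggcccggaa
Gbp3: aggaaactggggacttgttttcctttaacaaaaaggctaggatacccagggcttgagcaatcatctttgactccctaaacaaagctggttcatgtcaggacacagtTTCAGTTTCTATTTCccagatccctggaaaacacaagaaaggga
Phf11a: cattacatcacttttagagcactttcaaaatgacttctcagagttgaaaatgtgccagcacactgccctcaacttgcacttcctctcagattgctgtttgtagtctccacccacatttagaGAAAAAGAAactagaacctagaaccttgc
Isg20: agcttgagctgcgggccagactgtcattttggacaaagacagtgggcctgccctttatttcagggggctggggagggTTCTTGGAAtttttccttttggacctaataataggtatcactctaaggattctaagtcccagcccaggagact
Phf11c: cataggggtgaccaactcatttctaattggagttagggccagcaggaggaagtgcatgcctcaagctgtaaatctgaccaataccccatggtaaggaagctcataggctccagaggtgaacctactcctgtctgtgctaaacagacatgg
These stretches lie at chr19:34640739-34640888 (plus strand) for Ifit1, chr2:62646256-62646405 (minus) for Ifih1, chr3:142559894-142560043 (plus) for Gbp3, chr14:59297523-59297672 (minus) for Phf11a, chr7:78913274-78913423 (plus) for Isg20 and chr14:59393513-59393662 (minus) for Phf11c. RefSeq lists 2 starts for Gbp3 and 3 for Isg20, and for each the window with the most motif matches is shown. The windows of their other starts held neither motif.

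Ifit1 held 3 matches to the response element, of which 2 overlap, and Gbp3 held 2 that overlap. Across the windows of 300 bases (250 before and 50 after a start), a window was given for 33 of the 43 members, and the response element was found in 21 of them and the gamma-activated site in 12. By gene, the shares over all 27025 genes with a window were 9.76% and 9.55%. The response element was present in 5 of the 6 members that were higher over both tissues in the test below, Isg20 being the exception, in 2 of the 4 that were lower (Phf11a and Trim30a), and in 9 of the 18 with a window that were not called. A match describes letters in the window and was not tied to binding.

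The 12 arrays had medians between 5.75 and 5.87. The labels were checked on Mir142, the host transcript of the deleted microRNA, which lay between 6.77 and 8.25 on the 6 wild type arrays and between 4.05 and 4.70 on the 6 knockout arrays. The NK cell genes Ncr1 (11.53 to 12.11), Klrb1c (10.66 to 11.42) and Eomes (10.96 to 11.29) were high on all 12 arrays. The array numbers fell into 2 runs of 7 and 5, which the labels do not explain. The first run held the 3 knockout marrow arrays and, of wild type marrow, array 1 alone. Differences below come from a limma model with the run as a covariate. They depart from the plain difference of group means by over 0.1 for 3 of the 36 members in spleen and 13 in bone marrow, at most by 0.13 and 0.25, both for Phf11c. Called genes had an adjusted p below 0.05 (Benjamini-Hochberg, over all genes tested).

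The members did not move as a block: some rose and others fell, and most were not called. In these bulk samples, fewer cells of a type and less RNA per cell cannot be told apart. In spleen 4 of 36 members rose in the knockout (Ifih1, Oas3, Isg20 and Gbp3), against 5.48% of all genes tested, and 3 fell (Samhd1, Phf11a and Phf11c), against 3.63%. In bone marrow 1 member rose (Isg20), against 3.92%, and 2 fell (Samhd1 and Phf11a), against 4.73%. Without the run covariate 6 members were called in bone marrow, Ifih1 and Ifit1 (higher) and Phf11c (lower) beside these 3. Over both tissues, 6 rose (Isg20, Ifih1, Gbp3, Oas3, Eif2ak2 and Ifit1), against 8.81%, and 4 fell (Phf11a, Phf11c, Samhd1 and Trim30a), against 10.3%. Phf11c, counted here, passed the filter only through its wild type arrays, as given below. The count in spleen came to 2 when wild type spleen 3, the only wild type spleen array in its run, was left out, and that in bone marrow to 1 without wild type bone marrow 1. Over both tissues it came to 6 without knockout spleen 1.

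The members had a median difference of 0.04 in spleen, 0.07 in marrow and 0.05 over both tissues, with -0.01 for all genes in each. Their median absolute difference was 0.25 in either tissue and 0.21 over both, beside 0.15 and 0.19 for all genes in spleen and marrow and 0.13 over both. At an unadjusted p below 0.05, 41.7% of the members were past the threshold in spleen (all genes 22.1%), 19.4% in bone marrow (23.8%) and 41.7% over both tissues (31.3%). The groups did not overlap for 14 members in spleen (10 higher and 4 lower), where 28.0% of all genes did not overlap. In bone marrow 10 members (5 in each direction) did not overlap, against 34.2%. The arrays of 8 members separated the same way in both tissues, which is 22.2% of the members beside 13.5% of all genes. They were Ifih1, Ifit1, Eif2ak2, Isg20 and Ifi27, higher in the knockout, and Samhd1, Phf11a and Phf11c, lower. For Ifi27 in bone marrow the gap between the genotypes was only that from 8.7278 to 8.7279.

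**Figure D1:**
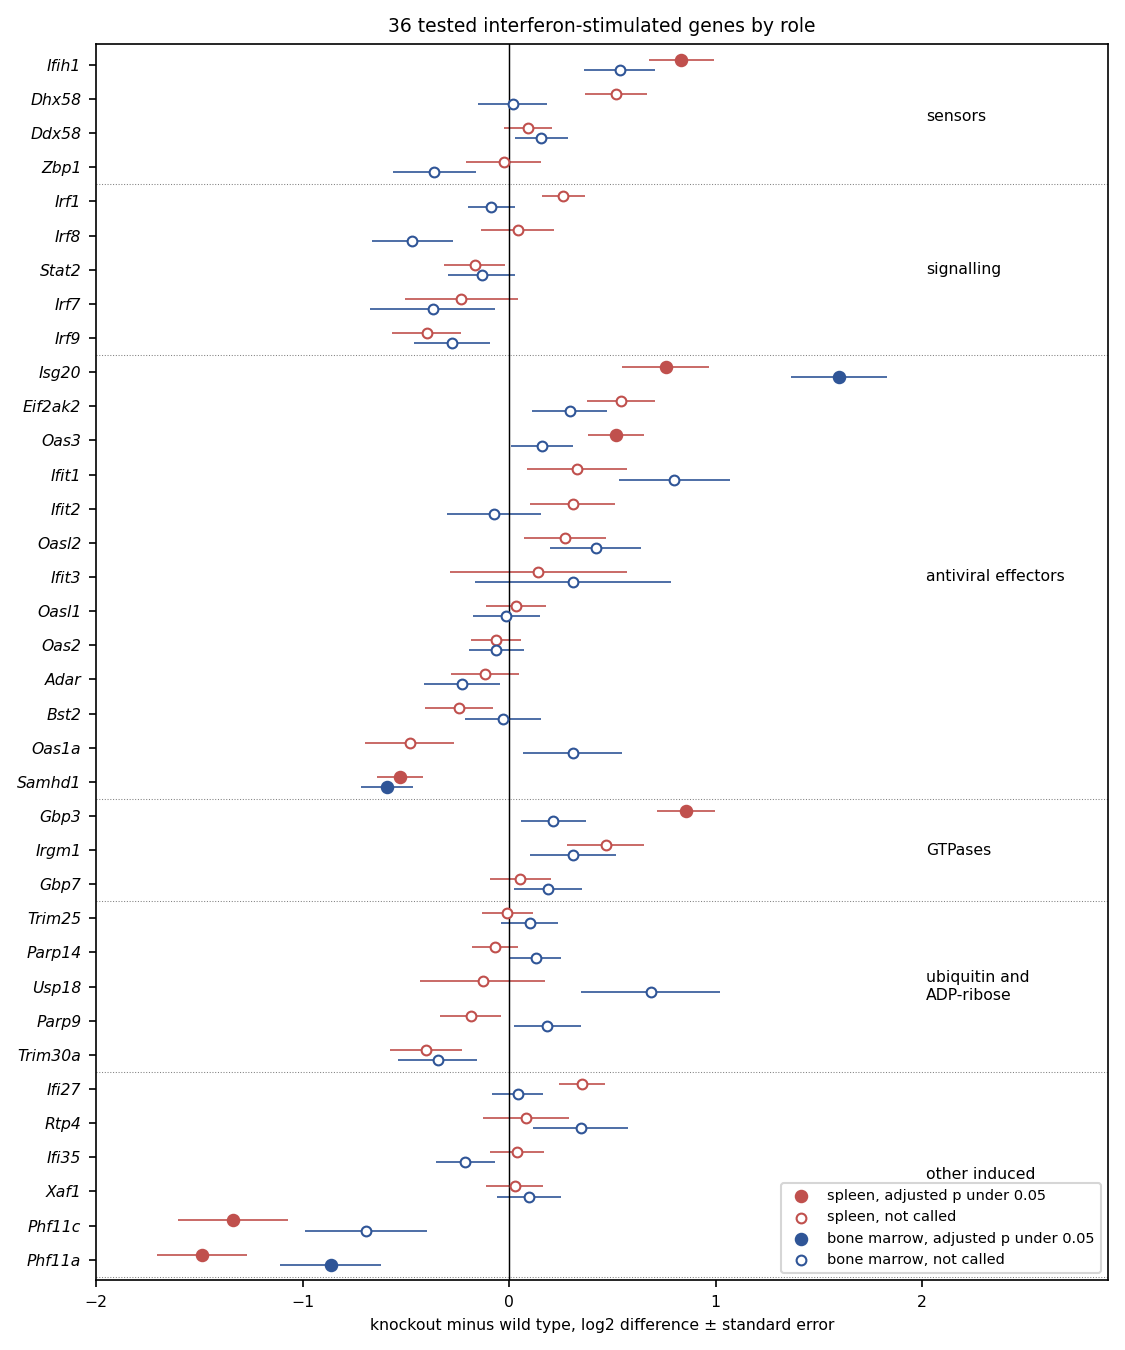
Log2 difference of knockout minus wild type for the 36 tested members, ordered by role, in spleen and in bone marrow, with bars of 1 standard error from the limma fit and a line at 0. Most members lie near 0, Isg20 reaches 1.60 in bone marrow, and Phf11a falls to -1.49 in spleen.

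Calls are given by role from here on, and the shares of all genes called, given above, stand beside them. Among the 4 sensors of viral nucleic acid, Ifih1 was the member that was called. It encodes MDA5, which binds long double-stranded RNA. Its signals in spleen were 7.02, 7.29 and 7.02 in wild type and 7.98, 7.94 and 7.87 in knockout. In bone marrow they were 7.04, 6.73 and 7.16 in wild type and 7.29, 7.81 and 7.52 in knockout. The genotypes did not overlap in either tissue, and the knockout arrays were the higher ones. The difference was 0.83 ± 0.16 (SE, 3 arrays a group) in spleen (limma, adjusted p = 0.0056), 0.54 ± 0.17 in bone marrow (adjusted p = 0.081) and 0.68 ± 0.11 over both (adjusted p = 0.00088). Without wild type spleen 3 the spleen value was 0.77 with an adjusted p of 0.062. The other sensors were not called: over both tissues Ddx58, which encodes RIG-I, gave 0.12 ± 0.08, Dhx58, which encodes the related helicase LGP2, 0.27 ± 0.10, and Zbp1, a sensor of Z-form nucleic acid, -0.19 ± 0.13.

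None of the 5 signalling and transcription factors was called, and 4 of the 5 had a difference below 0 over both tissues. Irf7, the factor that amplifies type I interferon production, had signals of 7.38, 6.65 and 7.77 in wild type spleen and 7.05, 6.89 and 7.30 in knockout spleen, and 7.44, 7.13 and 7.67 in wild type marrow and 6.74, 7.37 and 6.76 in knockout marrow. The genotypes overlapped in both tissues. The Irf7 difference over both tissues was -0.30 ± 0.19, with a 95% interval from -0.71 to 0.11 (limma, adjusted p = 0.32). In spleen it was 0.28 within the first run and -0.80 within the second. Stat2, the partner of Irf9, had 7.25, 7.20 and 7.04 in wild type spleen, 6.79, 6.93 and 7.07 in knockout spleen, 6.82, 6.35 and 6.84 in wild type marrow and 6.90, 6.67 and 6.45 in knockout marrow. Those groups overlapped as well, and the difference over both tissues was -0.15 ± 0.10, with a 95% interval from -0.37 to 0.07 (adjusted p = 0.35). For Irf9 it was -0.34 ± 0.12 (adjusted p = 0.064), for Irf8, a factor of myeloid and dendritic cell development, -0.21 ± 0.12 (0.27), and for Irf1, which responds to interferon gamma, 0.09 ± 0.07 (0.45). A second probe set of Irf1, with a lower mean signal, gave 0.27 ± 0.10 over both tissues.

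Of the 16 antiviral effectors, 13 were tested. Over both tissues 4 rose and 1 fell, beside 8.81% of all genes that rose and 10.3% that fell. Isg20, an exonuclease that degrades single-stranded RNA, had the largest rise of any member in bone marrow. Its signals there were 6.36, 5.78 and 6.13 in wild type and 7.28, 8.0 and 7.93 in knockout. In spleen they were 6.20, 6.61 and 6.45 in wild type and 7.08, 7.32 and 7.06 in knockout. All 6 knockout arrays lay above all 6 wild type arrays. The difference was 1.60 ± 0.23 in bone marrow, a fold of 3.02 (limma, adjusted p = 0.0014), 0.76 ± 0.21 in spleen, a fold of 1.69 (adjusted p = 0.045), and 1.18 ± 0.15 over both tissues (adjusted p = 0.00015). Within the first run it was 1.38 in bone marrow and 0.66 in spleen, and within the second run 0.75 in spleen. The spleen call was lost in 9 of 21 alternative settings, among them the omission of any 1 of the 6 spleen arrays, wild type bone marrow 1 or wild type bone marrow 3 (adjusted p up to 0.13), while the bone marrow call held in all 21.

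Samhd1, a phosphohydrolase that depletes the nucleotides needed for reverse transcription, moved the other way. It gave 10.64, 10.48 and 10.52 in wild type spleen and 10.03, 9.90 and 10.07 in knockout spleen. In bone marrow it gave 10.48, 10.42 and 10.56 in wild type and 9.84, 10.12 and 9.83 in knockout. Every knockout array lay below every wild type array, with little spread inside a group. The difference was -0.53 ± 0.11 in spleen (limma, adjusted p = 0.011), -0.59 ± 0.12 in bone marrow (adjusted p = 0.013) and -0.56 ± 0.08 over both (adjusted p = 0.00035). The spleen adjusted p was 0.078 without wild type spleen 3, and the bone marrow one 0.083 without wild type bone marrow 1.

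Oas3 and Eif2ak2 both encode enzymes switched on by double-stranded RNA: the first makes oligoadenylates that activate RNase L, and the second is the kinase PKR, which stops translation. Oas3 had 6.10, 6.03 and 6.05 in wild type spleen and 6.82, 6.54 and 6.51 in knockout spleen, and 6.13, 6.24 and 6.51 in wild type marrow against 6.39, 6.55 and 6.15 in knockout marrow. The genotypes separated in spleen and overlapped in bone marrow. The Oas3 difference was 0.52 ± 0.14 in spleen (limma, adjusted p = 0.034), 0.16 ± 0.15 in bone marrow (0.56) and 0.34 ± 0.09 over both (0.025). Without wild type spleen 3 the spleen value was 0.42 (adjusted p = 0.23), and the spleen call was also lost without wild type spleen 1 or 2 or knockout spleen 1 or 3. The call over both tissues was lost without wild type spleen 2 or 3, knockout spleen 1, wild type bone marrow 1 or 2, or knockout bone marrow 2 (adjusted p up to 0.1). For Eif2ak2 the signals were 7.08, 6.76 and 7.19 in wild type spleen, 7.78, 7.27 and 7.60 in knockout spleen, 7.38, 7.10 and 7.25 in wild type marrow and 7.40, 7.53 and 7.69 in knockout marrow. Its knockout arrays were higher without overlap in each tissue, by margins as small as the gap between 7.38 and 7.40. The difference over both tissues was 0.42 ± 0.11 (adjusted p = 0.022), and it was not called in spleen (0.54 ± 0.16, adjusted p = 0.06) or bone marrow (0.29 ± 0.18, 0.35). That call was lost without wild type spleen 2, knockout spleen 1 or knockout bone marrow 3 (adjusted p up to 0.07).

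Ifit1, which binds viral RNA with an unmethylated cap, had 5.73, 6.30 and 6.32 in wild type spleen, 6.48, 6.35 and 6.60 in knockout spleen, 5.87, 6.21 and 5.87 in wild type marrow and 6.33, 7.30 and 6.54 in knockout marrow. The groups did not overlap in either tissue, and knockout bone marrow 2 stood well above the rest. The difference was 0.56 ± 0.17 over both tissues (limma, adjusted p = 0.034), and in spleen 0.33 ± 0.24 (0.49) and in bone marrow 0.80 ± 0.27 (0.091) were not called. Without knockout bone marrow 2 the value over both tissues was 0.42 (adjusted p = 0.047), and the call was lost without wild type spleen 1, knockout spleen 1, knockout spleen 3, wild type bone marrow 1 or wild type bone marrow 3 (adjusted p up to 0.11). The remaining tested effectors, Ifit2, Ifit3, Oas1a, Oas2, Oasl1, Oasl2, Bst2 and Adar, were not called. Their differences over both tissues ran from -0.17 for Adar, the RNA-editing deaminase, to 0.35 for Oasl2. Of the untested effectors, Mx1 had signals of 4.81 to 6.06, Rsad2 of 5.02 to 5.71 and Mx2 of 3.67 to 4.55 over all 12 arrays (the filter level was 5.49).

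**Figure D2:**
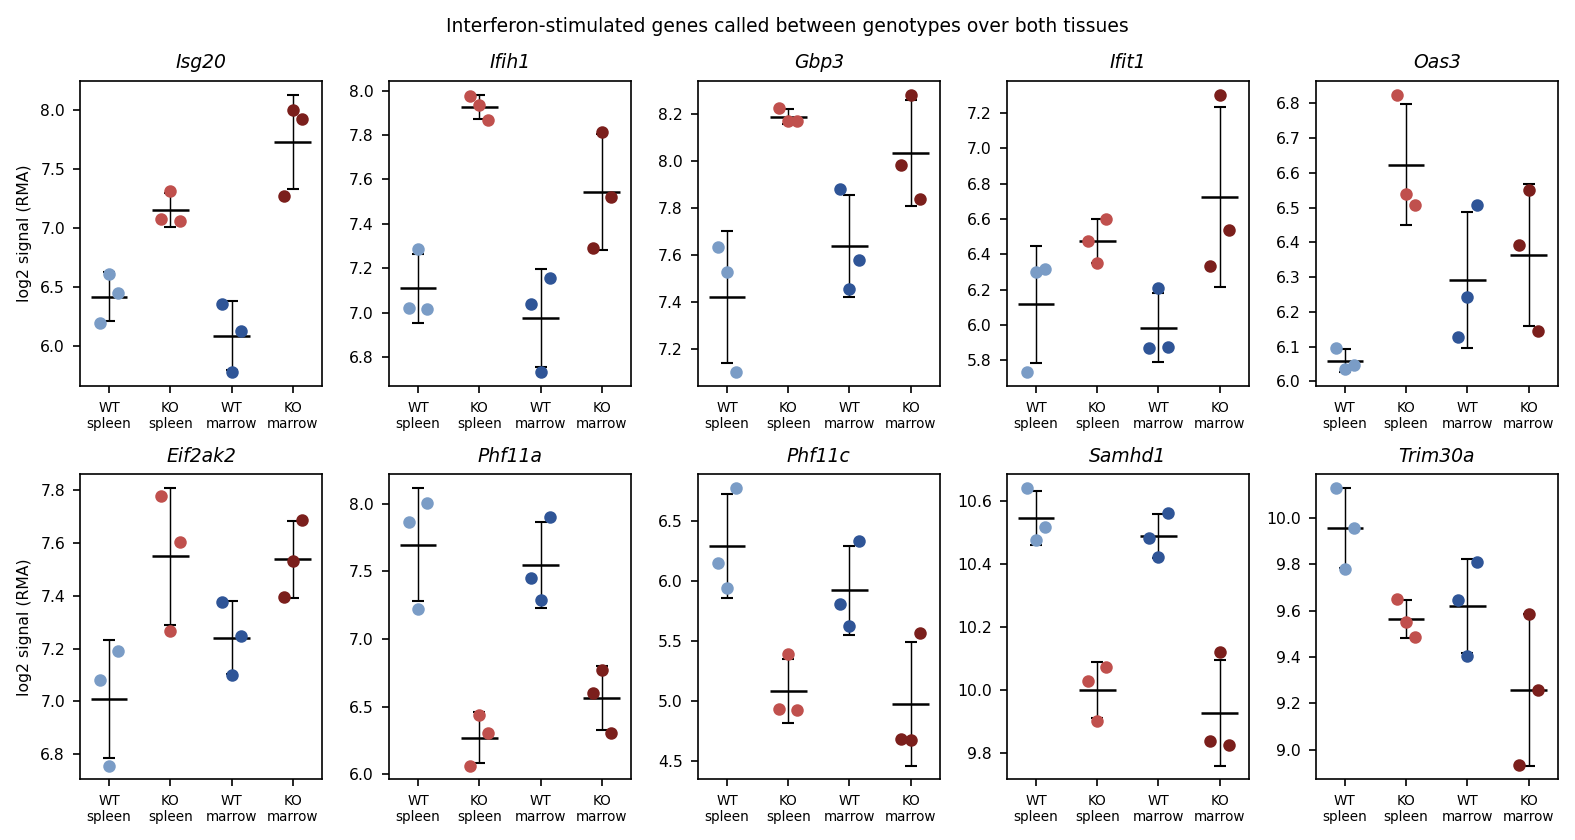
Log2 signal of the 10 members called over both tissues on each of the 12 arrays, as 1 point per array with a line at the group mean and bars of 1 SD (n = 3), for wild type and knockout spleen and bone marrow; vertical scales differ between panels. The 6 knockout arrays of Isg20 lie above the 6 wild type arrays, and those of Samhd1 and Phf11a below.

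Of the 5 GTPases, 3 were tested, and Gbp3 was called. Guanylate-binding proteins such as Gbp3 assemble on the vacuoles of intracellular pathogens. Gbp3 signals were 7.63, 7.53 and 7.10 in wild type spleen and 8.23, 8.17 and 8.17 in knockout spleen. In bone marrow they were 7.88, 7.46 and 7.58 in wild type and 7.98, 8.28 and 7.84 in knockout. The genotypes were apart in spleen and overlapped in marrow. The difference was 0.86 ± 0.14 in spleen (limma, adjusted p = 0.0027), 0.21 ± 0.16 in bone marrow (0.44) and 0.54 ± 0.10 over both (0.0024), and the spleen call held in every alternative. The 2 effects differed by -0.64 ± 0.23 (bone marrow minus spleen), which did not pass the correction over all genes (adjusted p = 0.42). Irgm1 (0.39 ± 0.13, adjusted p = 0.058) and Gbp7 (0.12 ± 0.10, 0.47) were not called over both tissues.

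Of the group of ubiquitin-like modifier enzymes, ubiquitin ligases and ADP-ribosyltransferases, 5 of 6 were tested, Isg15 being the one without a probe set of its own. Trim30a, a tripartite motif protein that restrains Toll-like receptor signalling, was the member that fell. Its signals were 10.13, 9.78 and 9.96 in wild type spleen and 9.65, 9.55 and 9.49 in knockout spleen, and 9.65, 9.40 and 9.81 in wild type marrow and 8.93, 9.59 and 9.26 in knockout marrow. The groups were apart in spleen and overlapped in marrow. The difference over both tissues was -0.37 ± 0.12 (limma, adjusted p = 0.048), and it was not called in spleen (-0.40 ± 0.17, 0.2) or bone marrow (-0.35 ± 0.19, 0.3). In 13 of 20 alternatives the call was lost (adjusted p up to 0.14), 10 of them the omission of 1 array: any but wild type bone marrow 2 and knockout bone marrow 2. Parp9 and Parp14, Trim25 (the ligase that activates RIG-I) and Usp18 (the protease that removes Isg15 and damps the type I receptor) were not called. Usp18 reached 0.69 ± 0.34 in bone marrow (adjusted p = 0.24).

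Phf11a and Phf11c, PHD finger genes of chromosome 14, were the members that fell most. Phf11a had 7.87, 7.22 and 8.01 in wild type spleen and 6.07, 6.44 and 6.31 in knockout spleen. In bone marrow it had 7.45, 7.29 and 7.90 in wild type and 6.60, 6.77 and 6.31 in knockout. All 6 knockout arrays were below all 6 wild type arrays. The difference was -1.49 ± 0.22 in spleen (limma, adjusted p = 0.0013), -0.86 ± 0.24 in bone marrow (0.049) and -1.18 ± 0.15 over both (0.00021). The bone marrow call, close to the threshold, was lost in 13 of 21 alternatives, 10 of which left out 1 array: any of the 6 knockout arrays, wild type spleen 1 or 3, or wild type bone marrow 1 or 3. The marrow difference then ran from -0.74 to -0.97, with an adjusted p up to 0.25 (without wild type bone marrow 1), and within the first run alone it was -0.89. For Phf11c the signals were 6.15, 5.94 and 6.78 in wild type spleen, 4.93, 5.39 and 4.92 in knockout spleen, 5.81, 5.62 and 6.34 in wild type marrow and 4.68, 4.67 and 5.57 in knockout marrow. They too did not overlap within a tissue. The knockout means, 5.08 in spleen and 4.97 in bone marrow, lay under the filter level of 5.49. The wild type means, 6.29 and 5.92, lay above it. Phf11c thus entered the test only through its wild type arrays, so its calls and its separation are no independent support for a fall. The Phf11c difference over both tissues was -1.01 ± 0.18 (adjusted p = 0.0023). It was -1.33 ± 0.27 in spleen (0.0081, and 0.098 without wild type spleen 3) and -0.69 ± 0.30 in bone marrow (0.18), where it was not called. The genes of this family are similar and adjacent, so a probe set may read more than 1 of them, and each value is uncertain as to the gene.

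The genes next to them were looked at after these values had been seen. In RefSeq order, Rcbtb1 precedes Phf11a, and Setdb2, a histone methyltransferase gene, follows Phf11c. Rcbtb1 fell by 0.76 ± 0.09 over both tissues (limma, adjusted p = 7.6e-05) and Setdb2 by 0.77 ± 0.09 (adjusted p = 0.00013), and each was called in spleen and in bone marrow. The next genes after Setdb2, Cab39l (-0.20 ± 0.08, adjusted p = 0.11) and Cdadc1 (-0.11 ± 0.08, 0.4), were not called. Phf11d was under the filter, and Phf11b and Gm45935 had no probe set of their own.

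**Figure D3:**
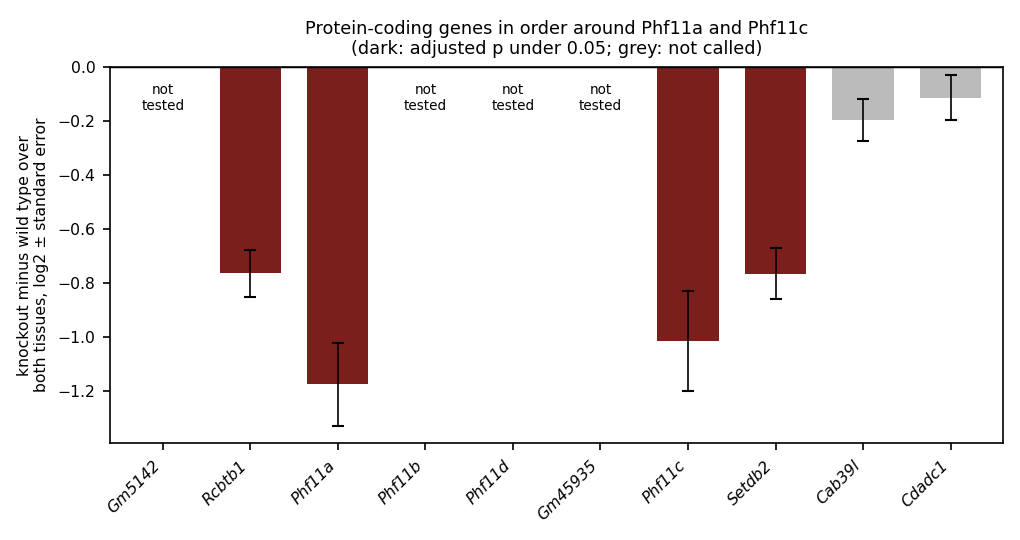
Log2 difference of knockout minus wild type over both tissues, with bars of 1 standard error, for the genes around Phf11a and Phf11c in their RefSeq order; genes not tested are marked. The tested genes from Rcbtb1 to Setdb2 lie between -1.18 and -0.76, while Cab39l and Cdadc1 lie at -0.20 and -0.11.

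Within a run, the spleen differences of the 7 members called there kept their sign in both runs. They were 0.71 and 0.94 for Ifih1 (first and second run), 0.44 and 0.63 for Oas3, 0.59 and 1.09 for Gbp3, -0.49 and -0.55 for Samhd1, -1.23 and -1.75 for Phf11a and -1.12 and -1.62 for Phf11c, beside those of Isg20 above. In bone marrow, where the second run held no knockout array, the first run gave -0.55 for Samhd1. Each of these rests on 1 to 3 arrays a group and has no test.

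Of the other induced genes Rtp4, Ifi27, Ifi35 and Xaf1 were not called, with differences over both tissues from -0.09 for Ifi35 to 0.22 for Rtp4. The arrays of Ifi27 separated by genotype in both tissues, but in bone marrow only by the gap between 8.7278 and 8.7279. Its difference was 0.04 ± 0.12 in bone marrow (limma, adjusted p = 0.87) and 0.20 ± 0.08 over both tissues (0.098).

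For tissue, no member was called. In wild type cells the comparison of bone marrow with spleen called 0 of 36 members, against 5.37% of all genes, with 3 members at an unadjusted p below 0.05 (all genes 22.9%), and the smallest adjusted p was 0.077, for Parp14 (limma). In knockout cells it called 0 of 36, against 0.318% of all genes, with 7 members at an unadjusted p below 0.05 (all genes 9.25%), the smallest adjusted p being 0.18, for Irf1. The test of whether the knockout effect differed between tissues called 0 of 36, against 0.00836% of all genes, with 3 members (Gbp3, Isg20 and Oas1a) at an unadjusted p below 0.05 (all genes 9.13%). For Isg20 that difference of effects was 0.84 ± 0.34 (adjusted p = 0.48). So a call in 1 tissue and not in the other does not show a difference between them.

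The members were unevenly spread over the arrays of a group. Knockout bone marrow 2 was the highest of its group in 26 of 36 members (72.2%), while it was the highest in 33.7% of all genes. Its members exceeded the mean of knockout bone marrow 1 and 3 by a median of 0.29, against 0.02 for all genes, and by over 0.5 in 10 members, 27.8% against 1.83%. Usp18 and Ifit3 led, at 8.11 against 6.88 and 7.64 against 6.41, followed by Ifit1, Rtp4, Zbp1, Irf7, Oasl2, Ifit2, Oas1a and Xaf1. Wild type bone marrow 2 was the lowest of its group in 24 of 36 members (34.7% of all genes), and wild type bone marrow 3 the highest in 22 (36.5%). An excess over 0.5 was also seen in 6 members on wild type bone marrow 3, 16.7% against 3.2% of all genes. On wild type spleen 3 it was seen in 3, 8.33% against 1.26%, and on the remaining arrays in at most 2. In spleen no array was extreme in more than 17 members. Of the members called in bone marrow, Isg20 exceeded the mean of the other 2 arrays by 0.40 on knockout bone marrow 2, and its adjusted p there stayed under 0.05 when that array was left out. The plasmacytoid dendritic cell markers had means of 7.27, 7.48 and 7.49 on knockout bone marrow 1, 2 and 3, and the granulocyte markers 7.49, 6.68 and 7.37. The T cell markers had 6.81, 7.18 and 6.90. Of the marker lists given below, that of T cells alone had its highest mean of this group on knockout bone marrow 2. The part of these cells in the array's values was not tested.

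**Figure D4:**
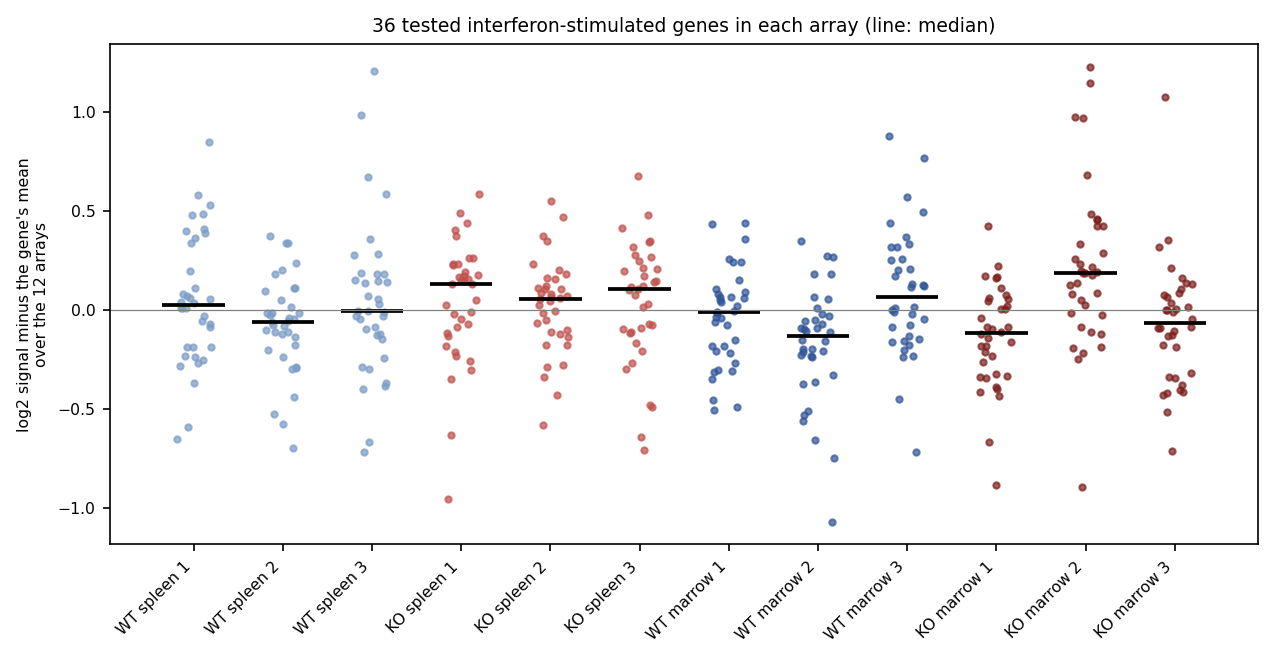
Log2 signal of each tested member on each of the 12 arrays minus its mean over all arrays, as 1 point per member with a bar at the median. The members of knockout bone marrow 2 have a median of 0.19, the highest of the 12 arrays, and those of wild type bone marrow 2 a median of -0.13, the lowest.

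Upstream of the members, the list of interferons held 21 genes, of which 7 were tested, 9 were under the filter and 1 was called. Of all genes tested, 10.3% were called lower over both tissues. Ifng, which encodes interferon gamma, fell. Its signals were 10.48, 10.33 and 10.66 in wild type spleen, 9.21, 8.56 and 9.41 in knockout spleen, 10.74, 10.35 and 10.22 in wild type marrow and 9.09, 8.66 and 7.80 in knockout marrow. No knockout array reached the lowest wild type array. The difference was -1.35 ± 0.30 in spleen (limma, adjusted p = 0.014) and -2.08 ± 0.33 in bone marrow (adjusted p = 0.0025). Ifnb1 stayed under the filter, at 4.21 to 4.88 on all arrays.

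Over both tissues 8.81% of all genes tested rose and 10.3% fell. Beside these shares, 2 of 4 tested receptor genes rose and 0 fell: Ifnar1 by 0.45 ± 0.08 (limma, adjusted p = 0.0017) and Ifnar2 by 0.29 ± 0.08 (0.027). Ifngr1 was not called (0.07 ± 0.07, 0.56), and Ifngr2 was under the filter. Of 4 tested kinase and STAT genes 2 fell and 0 rose, Jak1 by 0.46 ± 0.07 (0.00042) and Tyk2 by 0.34 ± 0.08 (0.011). Of 11 inhibitors of the pathway 2 rose and 1 fell. Ptpn6, the phosphatase SHP-1, rose by 1.04 ± 0.08 (5.2e-06) and Ptpn1 by 0.32 ± 0.09 (0.032), while Socs3 fell by 0.51 ± 0.13 (0.014) and Socs1 was not called (-0.03 ± 0.11, 0.9). For Socs3 the 2 tissues gave -0.06 ± 0.18 in spleen (0.91) and -0.97 ± 0.20 in bone marrow (0.012), and the difference of these effects did not pass the correction (0.38).

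Of 20 sensors, adaptors and kinases that induce interferon, 14 were tested. The calls over both tissues that follow stand beside 8.81% of all genes that rose and 10.3% that fell. Unc93b1, the chaperone of endosomal Toll-like receptors, rose by 0.53 ± 0.09 (limma, adjusted p = 0.0011) and Trex1, a DNA exonuclease that limits interferon induction, by 0.45 ± 0.12 (0.017). Ikbke, a kinase of interferon regulatory factors, fell by 0.33 ± 0.08 (0.013).

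A further list of 91 genes known to respond to interferon, of which 67 were tested, also went both ways: 11 rose and 7 fell in spleen, 5 rose and 6 fell in marrow, and 15 rose and 15 fell over both tissues, with a median difference of 0.06 over both. Over both tissues that is 22.4% of the list each way, beside 8.81% of all genes that rose and 10.3% that fell. In spleen 16.4% rose and 10.4% fell, and in marrow 7.46% and 8.96%, beside the shares of all genes given above for each tissue. This list was chosen with earlier results of these data known, and it holds Setdb2, named above. Its shares are therefore no independent test of genes that respond to interferon. The genes with the smallest p that rose over both tissues were Tnfsf10, the death ligand TRAIL (2.12 ± 0.11, limma, adjusted p = 1.8e-07), Parp12 (1.34 ± 0.14, 3.7e-05), Ly6e (0.66 ± 0.07, 3.9e-05) and Rnf213 (0.76 ± 0.10, 0.00033). Those that fell were Ms4a4c (-1.22 ± 0.12, 2.2e-05), Setdb2, Xdh (-0.82 ± 0.10, 0.00017) and Ms4a4b (-0.67 ± 0.09, 0.00021).

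Marker lists of other cells were read on the same arrays. The plasmacytoid dendritic cell markers, 6 of 10 tested, had array means of 6.78 to 6.90 in wild type spleen, 7.56 to 7.72 in knockout spleen, 6.90 to 6.97 in wild type marrow and 7.27 to 7.49 in knockout marrow. Cox6a2 moved most in that list, from 7.84 to 8.28 in wild type spleen to 11.5 to 11.9 in knockout spleen, and from 8.57 to 8.85 in wild type marrow to 10.7 to 11.25 in knockout marrow. The means of the other 5 markers, taken after this was seen, were 6.55 to 6.70, 6.76 to 6.88, 6.56 to 6.62 and 6.5 to 6.83 in the same order of groups. Of these 5, Tcf4 (0.65 ± 0.08, limma, adjusted p = 0.00016) and Ccr9 (0.56 ± 0.15, 0.022) rose over both tissues. Lair1 fell by 0.55 ± 0.07 (0.00027), and Tlr9 and Ly6d were not called. Siglech, Spib and Tlr7 of that list were under the filter, and Siglech lay between 5.11 and 5.61 on all arrays. Conventional dendritic cell markers, 7 of 11 tested, had means of 6.76 to 7.19, 7.70 to 8.10, 6.79 to 7.07 and 7.46 to 7.59 in the same order of groups, with Flt3, Xcr1, Clec9a and Cd209a under the filter. These markers did not move together: Itgax, H2-Aa, H2-Ab1, H2-Eb1 and Cd74 rose over both tissues. Batf3 fell by 0.37 ± 0.08 (limma, adjusted p = 0.0071), and Zbtb46 was not called (0.09 ± 0.08, 0.47). Granulocyte markers, 8 of 13 tested, had 5.79 to 6.40, 6.31 to 7.07, 8.0 to 8.41 and 6.68 to 7.49, with Ly6g, Mmp8, Mmp9, Ltf and Cxcr2 under the filter. T cell markers, 7 of 10 tested, had 7.12 to 7.25, 6.78 to 7.07, 7.88 to 8.04 and 6.81 to 7.18, with Cd4, Cd8b1 and Trat1 under the filter. Cd3d (-2.10 ± 0.16, limma, adjusted p = 3.4e-06), Cd3g, Cd28 and Icos fell over both tissues. Cd3e, Cd8a and Cd5 were not called. In bone marrow Cd3d gave -3.14 ± 0.26 (2.1e-05). In spleen Cd3e (0.55 ± 0.22, 0.16) and Cd3g (0.44 ± 0.22, 0.27) lay above 0 and were not called. Over both tissues 0 of 4 tested B cell markers were called in limma, where 8.81% of all genes rose and 10.3% fell. Of 4 tested monocyte and macrophage markers 2 were called, Ccr2 and Ms4a6c, both lower. Ccr2 lay between 9.43 and 11.50 on all arrays, while Csf1r, Cd14, Adgre1 and Fcgr1 were under the filter. Called as well were 1 of 4 erythroid markers (Car2, higher) and 1 of 4 platelet markers (F2rl2, lower). Cd79a and Ms4a1 (B cells), Klf1 (erythroid) and Pf4 (platelets) were under the filter. Car1, another erythroid marker, rose by 1.77 in spleen (adjusted p = 0.0033) and fell by 1.71 in bone marrow (0.009). The part of these cells in the members' differences, and in that of Ifng, was not tested.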

How the data were processed

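Per the labels' protocols, RNA came from Trizol extraction, and cDNA amplified by the NuGEN Ovation PicoSL system was labelled with biotin for the arrays. The authors deposited log2 signals per probe set, made with Affymetrix Expression Console and RMA per the submitters' processing notes; no source used here gives their versions. RMA scales all arrays to 1 distribution, so values are relative to the other genes.

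Of 35556 probe sets, 21789 carried 1 symbol in the platform annotation, 1621 several and 12146 none. For each of 19938 symbols the probe set with the highest mean was kept, and those whose mean exceeded the 40th percentile (5.49) were tested. limma 3.58.1 (R 4.3.3) fitted 4 group means and the array run, with 7 residual and 4.74 prior degrees of freedom and Benjamini-Hochberg adjustment over all 11963 genes. The model was tested on simulated data. Precision is limited by the number of arrays. The p-values set each difference against the spread between these arrays within the groups, moderated by that of all genes tested.

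Values on every array were given for the called members, at most 15, and for Irf7, Stat2, Isg15 and Ifit1 in any case, where a probe set gave them (Isg15 had none of its own). In each pathway list the called genes were named, at most 4 by smallest p and direction, beside Ifnar1, Ifnar2, Ifngr1, Ifngr2, Ifng, Ifnb1 and Socs1. Members, lists and alternatives were chosen with earlier results of these data known. Promoters came from RefSeq windows of GRCm38.p6.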

Additional observations from a re-analysis of the deposited data

How the results depend on the processing

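Each comparison was recomputed under 21 alternatives: quantile normalization or median centring again, other filters and probe set rules, no run covariate, each tissue alone, a replicate block and each array left out. Of 20 calls on named members, 346 of 405 recomputed values stayed called in limma, 59 were lost and 0 changed sign. Gbp3 and Phf11a in spleen, Isg20 in bone marrow, and Isg20, Ifih1, Samhd1, Gbp3, Phf11a and Phf11c over both tissues held throughout.

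Without the run covariate 6 members were called in bone marrow in place of 3, and 1 between wild type tissues in place of 0, as with quantile normalization again (1). Quantile normalization again gave 2 higher and 1 lower in bone marrow (1 and 2 as reported) and 8 higher and 3 lower over both tissues (6 and 4). Leaving out 1 array gave 2 to 8 members for spleen, 1 to 4 for marrow, 6 to 10 over both tissues and 0 to 1 between wild type tissues (1 without wild type spleen 2). Irf7 in spleen (-0.23) ran from -0.54 to 0.18 with 1 array left out and turned to 0.18 without wild type spleen 3. Stat2 in bone marrow turned from -0.13 to 0.0049 without the run covariate and with each tissue alone. The causes were not tested.

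The labels do not say that replicate numbers pair the samples. Deviations of same-numbered arrays correlated at -0.0196 to 0.242 (6 of 18 pairs over 0.1) and those of different numbers at -0.225 to 0.066 (0 of 36). A pairing by number is thus neither shown nor excluded. The main model did not use the numbers, so its p-values leave out any such pairing. With the replicate block 8 members were called for spleen, 2 for marrow and 9 over both tissues. Signals near the filter have the least room above background. Nearest it among the called members were Phf11c, Ifit1 and Oas3, and among the other tested members Oas2, Dhx58 and Oasl2.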
